A study of Mus musculus with 9 samples.

Results

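The major histocompatibility complex (MHC) class II genes and Cd74 were examined in melanocytes, the pigment cells of skin, which had been purified from mouse epidermis by flow sorting. The members are the rows of the deposited table named Cd74, H2.Aa, H2.Ab1, H2.Eb1 and H2.DMa, which is how the table writes H2-Aa, H2-Ab1, H2-Eb1 and H2-DMa. All 5 names were found among the 16299 genes of the table, and all 5 gave whole counts. They are set beside Tyrobp and Lyz2, transcripts of myeloid cells that serve as gauges of myeloid RNA in the sort. The knockout back group came from back epidermis and the knockout tail group from tail epidermis of Spry1flox/flox mice carrying k14-Cre-ERT2. The control tail group came from tail epidermis of Spry1flox/flox mice with no Cre named. Floxed Spry1 is thus shared by all 3 groups, and there is no control from back epidermis, so the comparison of knockout back with control tail changes body site and genotype together. Each group has 3 libraries. The Cre is fused to a ligand-dependent oestrogen receptor and driven by the keratin 14 promoter, which is active in basal keratinocytes rather than in the cells that were sorted. Age and the inducing treatment are not given in the labels. Nor do the labels tie replicates to separate animals, and p-values then reflect only how these samples vary, which may be technical.

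MHC class II molecules are pairs of an alpha and a beta chain that display peptides from engulfed proteins to CD4+ T cells. Cd74, the invariant chain, binds new class II molecules and carries them to endosomes, where proteases degrade it. H2-DM, a pair of H2-DMa with H2-DMb, then removes the last invariant chain fragment and lets peptides bind. Dendritic cells, macrophages and B cells make class II molecules constantly, and Langerhans cells are the dendritic cells of the epidermis. Other cells can make them when interferon-gamma induces the coactivator Ciita, and human melanocytes in culture are known to do so.

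The promoters of class II genes carry an X box and a Y box in fixed order, which are bound by the regulatory factor X (RFX) complex and by nuclear factor Y, and this is the sequence feature that groups these genes. In the RefSeq promoter table for GRCm38.p6, windows of 300 bases were found for 3 of the 5 members, H2-Aa, H2-Eb1 and H2-DMa. The letters AACNGATG stood for the X box and ATTGG for the Y box, on either strand, with no overlap between them. Of 32851 windows, 37.4% held ATTGG and 2.32% held AACNGATG. An X box followed by a Y box after 10 to 30 bases was found in 7 windows, or 0.0213%. These belonged to H2-DMb2, H2-DMb1, H2-Eb1, H2-Eb2, BC051142 and H2-M10.4 on chromosome 17 and to Gm35697 on chromosome 19. The stretches below are shown because they let the spacing be seen in a member, H2-Eb1, and in the gene of the partner chain of H2-DMa, H2-DMb1, beside a member, H2-Aa, in which only the Y box letters were found. Capitals mark the box letters, and each is written 5′ to 3′ on the strand of its gene. In H2-Eb1 (chr17:34305738-34305832, plus strand) the boxes began 89 and 59 bases before the start with 22 bases between them, and in H2-DMb1 (chr17:34153059-34153154, plus strand) they began 92 and 61 bases before it with 23 between. The start is the one RefSeq gives for each window; for H2-DMb1 the GENCODE gene, given further on, begins upstream of it. In H2-Aa (chr17:34287847-34287941, minus strand) ATTGG began 48 bases before the start.
H2-Eb1: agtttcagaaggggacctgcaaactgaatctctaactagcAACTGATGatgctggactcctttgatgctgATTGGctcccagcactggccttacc
H2-DMb1: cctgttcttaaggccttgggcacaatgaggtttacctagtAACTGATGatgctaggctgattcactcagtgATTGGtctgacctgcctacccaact
H2-Aa: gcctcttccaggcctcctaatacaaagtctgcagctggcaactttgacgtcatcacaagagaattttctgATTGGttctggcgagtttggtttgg
H2-DMa has windows at 2 starts, of which the one at chr17:34125268-34125567 held ATTGG and neither held AACNGATG. A missing match says only that these letters are not in the window.

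Levels are given as counts recovered from the deposited log2 values, or as normalised counts, in which each count is scaled by its library's size factor. Total counts per library, in M (mega) counts, were 47.7 to 57.1 in knockout back, 45.7 to 65.6 in knockout tail and 66.3 to 67.9 in control tail. The melanocyte label was checked against lineage markers: the counts of Tyr, the first enzyme of melanin synthesis, ran from 117146 to 360135 over the 9 libraries, and those of the lineage factor Sox10 from 19106 to 30447. Some libraries stood apart. Genes at 0 counts numbered 4628 in the first and 6127 in the second knockout back library, but 854 to 1739 elsewhere. The third knockout back and the third knockout tail library form a smaller set, and the other 7 libraries a larger one. A shift between these sets had been removed from every gene before deposit, without regard to group. The third knockout tail library had 6364 counts of Xist and 0 of the Y-linked Eif2s3y, while the first and second had 5 and 19 of Xist. The other 5 knockout libraries had 2543 to 5677 counts of Eif2s3y, and the controls had 0 to 154. All 3 knockout back libraries held Xist as well, at 1313, 1266 and 2699 counts, so sex-linked transcripts are not matched between the groups.

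Per kilobase of exon, Cd74 was the most abundant member in each of the 3 knockout back libraries and in knockout tail library 3. Its normalised count was 1659, 4428 and 12517 in knockout back, 107, 6.75 and 5137 in knockout tail, and 3.94, 134 and 2.43 in control tail. All knockout back libraries were above all control tail libraries, and the third knockout tail library lay among the knockout back ones. The means were 6201 ± 5642 in knockout back, 1750.0 ± 2933 in knockout tail and 46.8 ± 75.6 in control tail (SD, n = 3). In bulk samples fewer cells of a type and less RNA per cell cannot be told apart, here and for every other gene below.

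The classical alpha and beta chains followed the same libraries. H2-Aa (chr17:34282744-34287823, minus strand, GRCm38, protein coding, ENSMUSG00000036594.15) encodes the alpha chain of the mouse I-A molecule. Its recovered counts were 2743, 2701 and 3769 in knockout back, 0, 0 and 1108 in knockout tail, and 0, 6 and 0 in control tail. A library at 0 may still have held up to 3 counts, an allowance for counting error only, so the libraries at 0 could not be ordered at this depth, while the 6 counts of the second control tail library lay above that allowance. H2-Ab1 (chr17:34257689-34269419, plus strand, protein coding, ENSMUSG00000073421.6), the beta chain of the same molecule, had 2212, 5065 and 4903 counts in knockout back, 5, 4 and 1954 in knockout tail, and 102, 0 and 0 in control tail. For both chains every knockout back library exceeded every tail library of either genotype. The normalised mean of H2-Aa was 3269 ± 382 in knockout back, 427 ± 739.6 in knockout tail and 1.65 ± 2.87 in control tail, and that of H2-Ab1 was 4369.8 ± 1810.1, 756 ± 1302 and 26.8 ± 46.4 in the same groups (SD, n = 3).

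The beta chain of the I-E molecule and the peptide exchange chain had another pattern. H2-Eb1 (chr17:34305867-34316674, plus strand, protein coding, ENSMUSG00000060586.11) had 0, 0 and 3110 counts in knockout back, 0, 85 and 879 in knockout tail, and 0, 213 and 0 in control tail. H2-DMa (chr17:34119541-34139101, plus strand, protein coding, ENSMUSG00000037649.10) had 0, 0 and 1280 counts in knockout back, 40, 148 and 190 in knockout tail, and 63, 101 and 105 in control tail. Both genes were highest in the third knockout back library and next highest in the third knockout tail library, and both were at 0 in the first and second knockout back libraries, which held 1541 and 3786 counts of Cd74. Those libraries had many other genes at 0. Of 4298 genes whose normalised count in the third knockout back library was within 2-fold of that of H2-Eb1, 8.33% were at 0 in the first knockout back library, 17.6% in the second and 3.75% in both. For 4332 genes near the level of H2-DMa these shares were 20.8%, 33.1% and 11.5%. This comparison was added after the values were seen. The means overlapped widely: H2-Eb1 had a normalised 1016 ± 1759 in knockout back, 363 ± 567 in knockout tail and 58.8 ± 102 in control tail, and H2-DMa had 418 ± 724, 126 ± 93.7 and 72.8 ± 19.99 in the same groups (SD, n = 3).

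**Figure D1:**
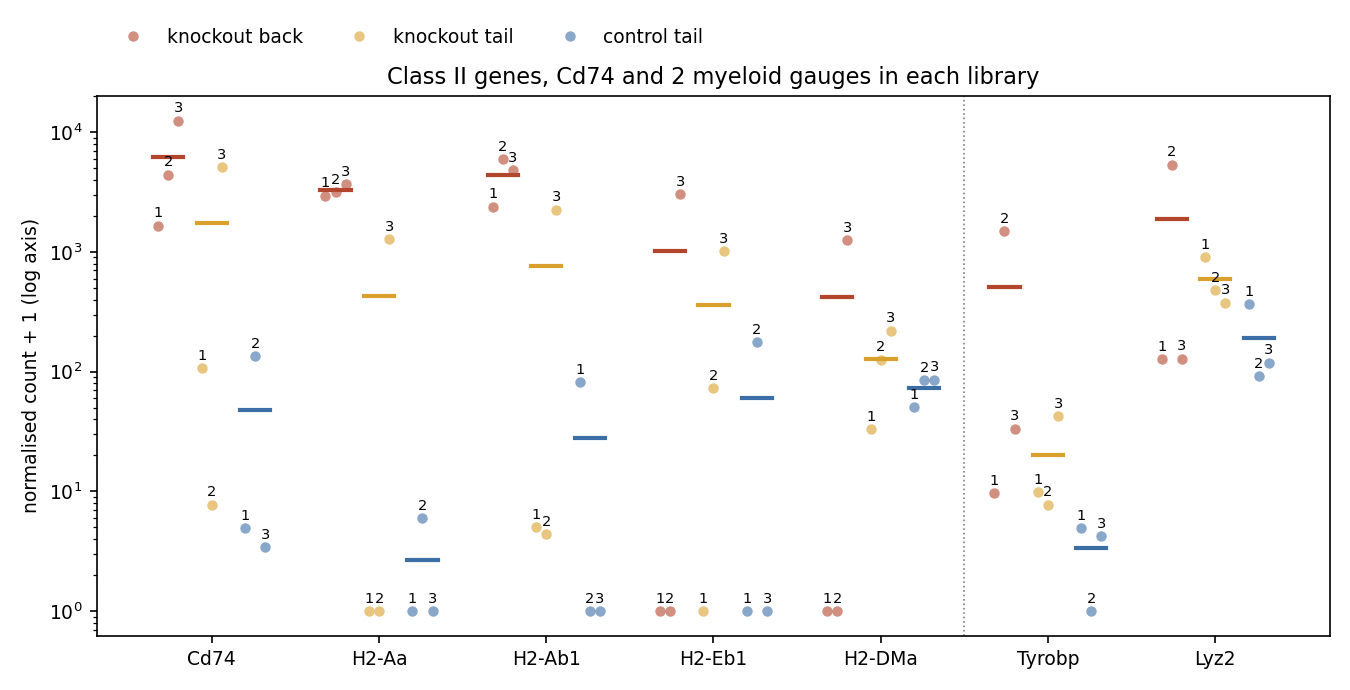
Normalised count plus 1, on a log axis, of the 5 members and of the gauges Tyrobp and Lyz2 in each library. Each point is 1 library with its replicate number, bars are the means of 3 libraries, and points at the bottom of the axis are libraries at 0 counts. Cd74, H2-Aa and H2-Ab1 are high in every knockout back library and also in the third of knockout tail, while H2-Eb1 and H2-DMa are at 0 in the first and second knockout back libraries.

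Knockout back was set against control tail with limma on the deposited log2 values of all 9 libraries, with group and library set as terms. Cd74 and H2-Aa rose. The log2 difference of Cd74 was 2.92 (SE 0.59, limma adjusted p = 0.047) and that of H2-Aa was 3.32 (SE 0.58, limma adjusted p = 0.036). H2-Ab1 differed by 3.33 (SE 0.71) and missed the threshold of 0.05, with a limma adjusted p of 0.051. H2-Eb1 differed by -0.12 (SE 0.55, limma adjusted p = 0.92) and H2-DMa by -0.39 (SE 0.50, limma adjusted p = 0.67). Thus 2 of 5 members were called, both higher, where 3.34% of all 16299 genes were called in either direction and 1.05% were called higher. The median difference of the members was 2.92, beside -0.26 over all genes.

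These calls lay close to the threshold. Of 20 other settings, 5 kept Cd74 past it, with adjusted p from 0.0083 to 0.57, and 7 kept H2-Aa past it, with adjusted p from 0.0037 to 0.43. Limma-voom on the recovered counts called none of the members. H2-Ab1 passed in 5 of the 20, and its adjusted p ran from 0.0058 to 0.69. Leaving out any of 8 libraries ended both calls, and leaving out the third knockout back library kept both (adjusted p of 0.0083 for Cd74 and 0.0037 for H2-Aa). Without that library 2804 of 16299 genes were called, 706 of them higher, against 545 and 171 in the full fit. A fit without the third knockout back or the third knockout tail library also drops the set term, since 1 library is then left in the smaller set. With both of them left out, a setting added after the values were seen, the differences were 3.23 for Cd74, 3.74 for H2-Aa and 3.82 for H2-Ab1 (limma adjusted p of 0.016, 0.0069 and 0.0099). That setting called 2371 genes, 556 of them higher. Without the first and second knockout back libraries the differences were 1.34 for Cd74, 1.19 for H2-Aa and 0.86 for H2-Ab1 (limma adjusted p of 0.57, 0.43 and 0.69). In an exact two-sided permutation test of 3 against 3 libraries on log2 of the normalised count plus 1, Cd74, H2-Aa and H2-Ab1 each gave p = 0.1, the smallest that design allows, and 0.26 after adjustment over 21 such tests. For these 3 members the groups did not overlap, as was true, with knockout back higher, of 7.41% of all genes.

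Knockout back was next compared with knockout tail, which differ in body site within 1 genotype. None of the members passed. The log2 differences were 2.47 for Cd74 (SE 0.55, limma adjusted p = 0.091), 2.96 for H2-Aa (SE 0.54, limma adjusted p = 0.071) and 2.93 for H2-Ab1 (SE 0.67, limma adjusted p = 0.099). H2-Eb1 differed by 0.17 (limma adjusted p = 0.89) and H2-DMa by -0.01 (limma adjusted p = 0.99). So 0 of 5 members were called by limma, where 0.436% of all genes were, and limma-voom also called 0. At an unadjusted p under 0.05 there were 3 members, Cd74, H2-Aa and H2-Ab1, beside 18.2% of all genes. Without the third knockout back library and the set term all 3 passed, with differences of 3.03, 3.65 and 3.69 (limma adjusted p of 0.014, 0.0058 and 0.011). That fit called 1972 genes, against 71 in the full fit. It took the third knockout tail library at its deposited level, from which the set shift had been removed. For Cd74 this was 10.62, at 5137 normalised counts, which exceed the 1659 and 4428 of the first and second knockout back libraries. With both libraries of the smaller set left out the differences were 3.10, 3.81 and 3.91 (limma adjusted p of 0.028, 0.015 and 0.016), and 1637 genes were called. Knockout back libraries lay above all knockout tail libraries in H2-Aa and H2-Ab1 (exact two-sided permutation p = 0.1, the smallest possible), an arrangement shared by 4.55% of all genes, and overlapped them in Cd74 (exact permutation p = 0.3).

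Knockout tail was also compared with control tail, which differ in genotype at 1 body site. The log2 differences were 0.44 for Cd74, 0.36 for H2-Aa, 0.40 for H2-Ab1, -0.28 for H2-Eb1 and -0.38 for H2-DMa, and the limma adjusted p was 0.9996 for each. Of the 5 members 0 were called by limma with 0 at an unadjusted p under 0.05 (5.7% of all genes), limma-voom called 0 as well, and 0.0614% of all genes were called. None of the 5 had knockout tail libraries all above control tail, beside 9.7% of all genes. In knockout tail the third library held 4443 of the 4583 Cd74 counts and all 1108 of the H2-Aa counts, but 190 of the 378 counts of H2-DMa. This comparison shares its control libraries with the first and its knockout tail libraries with the second.

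The median difference of all genes depended on the scaling. After quantile normalization it was 0.03 for knockout back against control tail, with Cd74, H2-Aa and H2-Ab1 at 3.00, 3.48 and 3.49 and all past the threshold (limma adjusted p of 0.042, 0.018 and 0.037). Of the genes called in that comparison, 31.4% were higher in knockout back, or 45.4% after quantile normalization. For knockout back against knockout tail the same shares were 32.4% and 50%, and the median of all genes was -0.18, or 0.03 after quantile normalization.

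**Figure D2:**
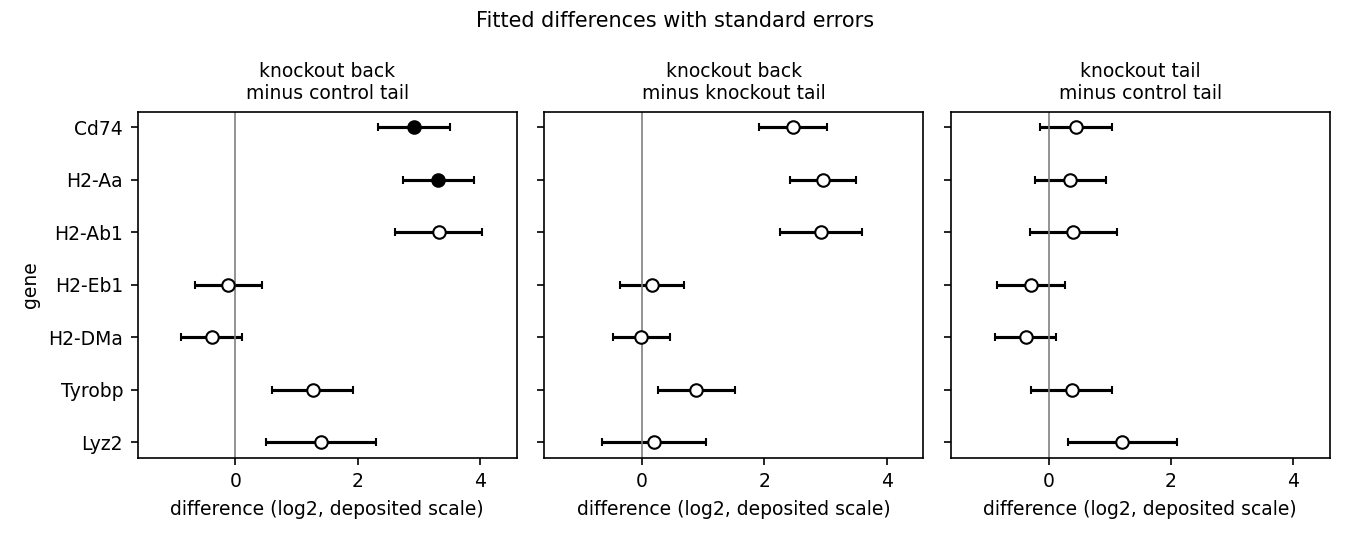
Fitted log2 differences on the deposited scale (x axis) of the members and gauges (rows) in the 3 comparisons, with bars of 1 standard error. Filled points passed a limma adjusted p of 0.05, which only Cd74 (2.92) and H2-Aa (3.32) did, in knockout back minus control tail.

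The set term matters to these genes, since the mean log2 level of each of the 5 members was higher in the smaller library set. That set holds 1 knockout back and 1 knockout tail library and no control, so the shift also carries the make-up of the groups. In H2-Ab1 the highest knockout back library of the larger set, at 5923 normalised counts, lay above both libraries of the smaller set (4804 and 2259). The removed shift, smaller minus larger set on the log2 scale, was 3.67 for Cd74, 2.31 for H2-Aa, 2.58 for H2-Ab1, 2.90 for H2-Eb1 and 1.495 for H2-DMa, beside a median absolute shift of 0.45 over all genes. It was -0.03 for Tyrobp and -0.56 for Lyz2. The deposited values of the members therefore do not carry this difference: the third knockout tail library, with 4443 counts of Cd74, has a deposited level of 10.62, and the first knockout tail library, with 132 counts, one of 10.74. Within the smaller set, with 1 library each and no test, knockout back exceeded knockout tail 2.44-fold in Cd74, 2.88-fold in H2-Aa, 2.13-fold in H2-Ab1, 3.00-fold in H2-Eb1 and 5.71-fold in H2-DMa. Within the larger set Cd74 had normalised counts of 1659 and 4428 in knockout back, 6.75 and 107 in knockout tail and 2.43 to 134 in control tail. H2-Aa there had 2954 and 3159 in knockout back, 0 and 0 in knockout tail and 0 to 4.96 in control tail. No source used here says what the sets stand for.

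The make-up of the signal was compared per kilobase of exon. In the third knockout back library Cd74 made up 61.0% of the summed level of the 5 members, H2-Ab1 15.3%, H2-Eb1 12.8%, H2-Aa 7.95% and H2-DMa 2.97%. In the third knockout tail library the shares were 62.9% for Cd74, 18.1% for H2-Ab1, 10.8% for H2-Eb1, 6.94% for H2-Aa and 1.31% for H2-DMa, the same order of the genes at a lower sum. The first and second knockout back libraries held Cd74, H2-Ab1 and H2-Aa only, with Cd74 at 36.7% and 45.7%, H2-Ab1 at 34.4% and 39.9% and H2-Aa at 28.9% and 14.4%. The summed normalised count of the members was 6995, 13509.5 and 25316 in knockout back, 143, 207 and 9913 in knockout tail and 134, 399 and 87.4 in control tail. The shares of the 5 libraries with low sums rest on 108 to 482 counts and follow no common order.

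**Figure D3:**
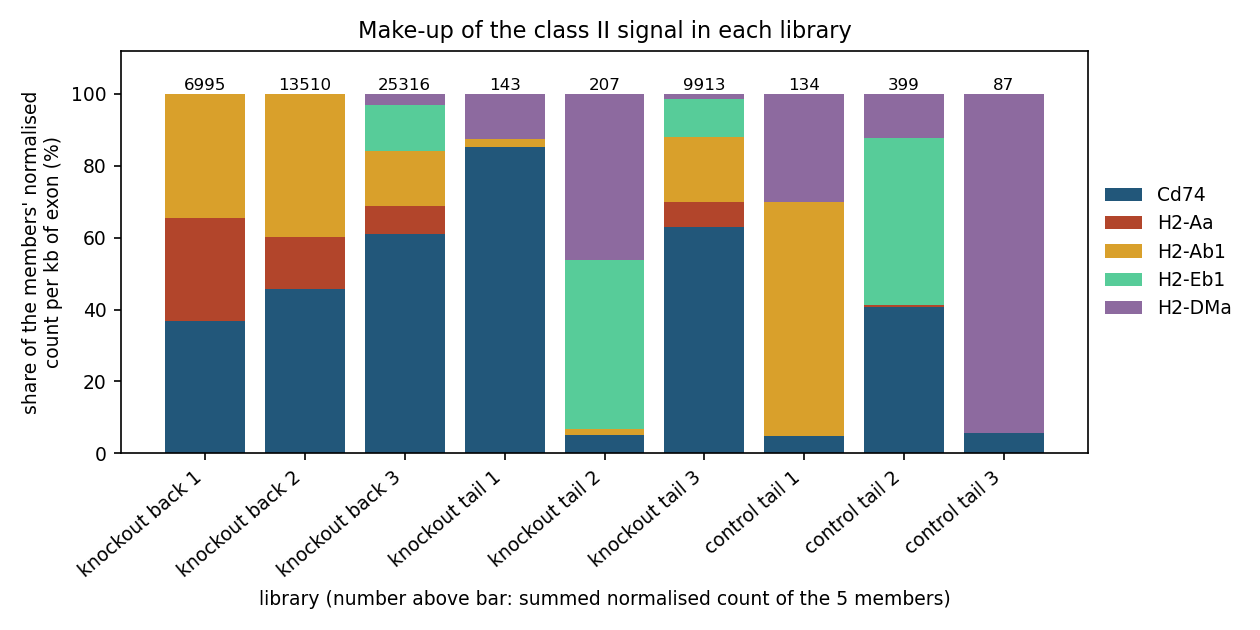
Share (%) of each member in the summed normalised count per kilobase of exon, 1 bar per library, with the summed normalised count above the bar. The third library of knockout back and the third of knockout tail have nearly the same make-up, with Cd74 at 61.0% and 62.9%, while the bars of the libraries with sums under 400 rest on few counts.

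The gauges did not follow the members in every library. Tyrobp (chr7:30413760-30417585, plus strand), an adaptor of activating receptors on myeloid and natural killer cells, had 8, 1280 and 33 counts in knockout back, 11, 8 and 36 in knockout tail and 5, 0 and 4 in control tail. Lyz2 (chr10:117277331-117282321, minus strand), the lysozyme of macrophages and neutrophils, had 117, 4594 and 130 counts in knockout back, 1125, 568 and 326 in knockout tail and 461, 110 and 146 in control tail. The second knockout back library was highest for both gauges, whereas the third was highest for Cd74. Counts of Cd74 per count of Tyrobp were 193, 2.96 and 387 in knockout back and 12, 1 and 123 in knockout tail. The first knockout back library thus had 1541 counts of Cd74 with 8 of Tyrobp and 117 of Lyz2. By limma and limma-voom neither gauge passed in any comparison, and by limma neither had an unadjusted p under 0.05: Tyrobp differed by 1.26 (adjusted p = 0.29) and Lyz2 by 1.40 (adjusted p = 0.38) in knockout back minus control tail, and without the second knockout back library Lyz2 differed by -0.02 (adjusted p = 0.98). Of all genes, limma called 3.34% in knockout back minus control tail, where 24.6% had an unadjusted p under 0.05. These shares were 0.436% and 18.2% in knockout back minus knockout tail, and 0.0614% and 5.7% in knockout tail minus control tail. In normalised counts the knockout tail libraries lay narrowly above all control tail libraries in both gauges (exact two-sided permutation p = 0.1 each, the smallest possible). The lowest knockout tail and highest control tail values were 377 and 364 for Lyz2. For Tyrobp they were 6.75 and 3.94, close to the allowance of 3 counts. This arrangement was shared by 9.7% of all genes, and the limma log2 differences were 0.38 for Tyrobp and 1.21 for Lyz2. Tyrobp was also higher in every knockout back library, the lowest at 8.61, than in any control tail library (exact two-sided permutation p = 0.1), as were 7.41% of all genes. No correlation with the gauges is given, because Cd74, H2-Aa and H2-Ab1 part the libraries into 4 with high levels and 5 with low ones, and neither set holds 6.

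**Figure D4:**
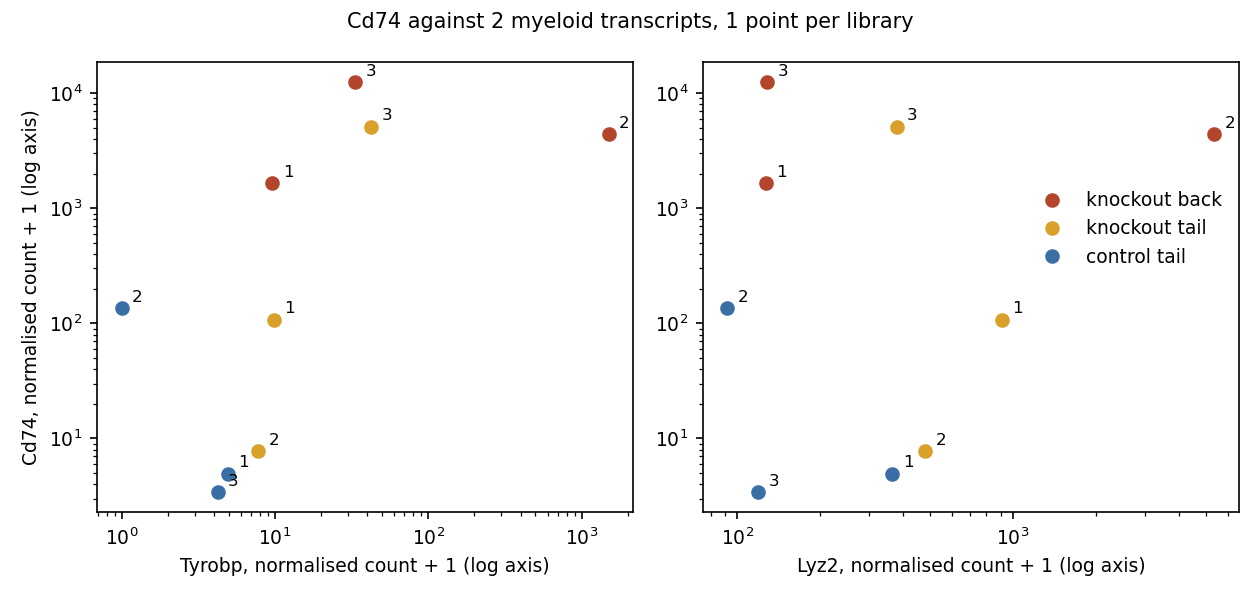
Normalised count plus 1 of Cd74 against Tyrobp (left) and Lyz2 (right), log axes, 1 point per library with its replicate number. Of the 4 libraries with much Cd74, the second knockout back library is far to the right in both panels (1280 counts of Tyrobp and 4594 of Lyz2), and the first and the third are not.

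Markers of other cells were examined as a list. Of 20 Langerhans cell, dendritic and myeloid markers, 11 were rows of the table and the other 9, among them Cd207 and Itgax, were not analysed here. Their summed normalised count was 1059 to 12289 in knockout back, 2757 to 3475 in knockout tail and 1477 to 1803 in control tail, and none of the 11 was called by limma or limma-voom in any comparison, with at most 1 at an unadjusted p under 0.05 in each direction. Limma called 3.34% of all genes in knockout back minus control tail, 0.436% in knockout back minus knockout tail and 0.0614% in knockout tail minus control tail. At an unadjusted p under 0.05 the shares were 24.6%, 18.2% and 5.7%, in the same order. The second knockout back library also held 2439 counts of the complement gene C1qc and 227 of Ptprc, the pan-leukocyte CD45, which was at 0 in the first knockout back and the third knockout tail library. Other markers of this list were low in the second knockout back library, with 20 counts of Fcer1g, 22 of Coro1a and 10 of Adgre1. Laptm5 had 8, 42 and 959 counts in knockout back, and Cd68 had 0, 1756 and 554. The third knockout tail library had 426 counts of Csf1r, the receptor for macrophage colony stimulating factor, against 15 to 27 in the other 8. Cd52, a leukocyte surface protein, had 765, 93 and 202 counts in knockout back, 37, 32 and 51 in knockout tail and 46, 18 and 36 in control tail. The 3 T cell markers in the table summed to 20.5, 76.0 and 623 in knockout back, 12.1, 326 and 0 in knockout tail and 12.6, 3.31 and 10.5 in control tail, with Cd3g, a T cell receptor subunit, at 507 counts in the third knockout back library. No B cell marker was analysed here. The summed normalised count of the keratinocyte markers was highest in the third knockout back and the third knockout tail library, at 212890 and 417619, against 21943 to 144509 in the other 7. Krt10 alone was highest in the second knockout back library, at 54114, against 16126 in the third. The part that RNA of other cells had in the levels of the members was not tested.

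**Figure D5:**
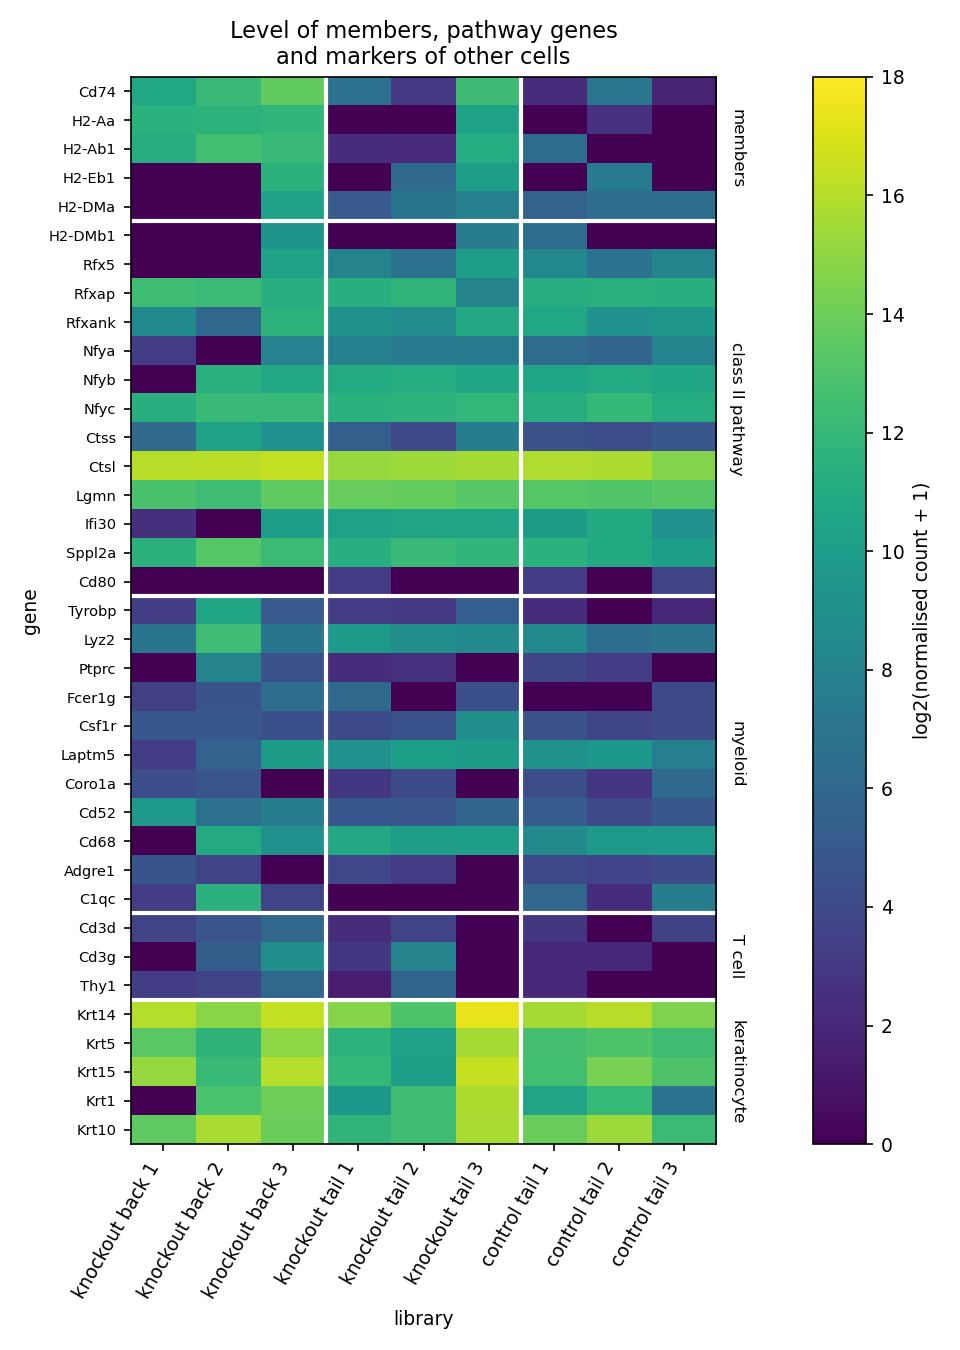
Log2 of the normalised count plus 1 (colour) of the members, the class II pathway genes and markers of myeloid, T and keratinocyte cells (rows) in the 9 libraries (columns). The rows of Cd74, H2-Aa and H2-Ab1 are bright in the knockout back columns and the third knockout tail column, and most myeloid rows are not.

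Of 24 other class II pathway genes on the list, 13 were in the table, and with all 9 libraries 0 of them passed limma or limma-voom in any of the 3 comparisons. The shares of all genes called by limma were 3.34% for knockout back against control tail, 0.436% for knockout back against knockout tail and 0.0614% for knockout tail against control tail. At an unadjusted p under 0.05, 3 were higher and 2 lower in knockout back than in control tail (24.6% of all genes in either direction), 2 were higher and 1 lower in knockout back than in knockout tail (18.2%), and 0 had such a p between knockout tail and control tail (5.7%). Their median difference in knockout back minus control tail was -0.17, beside -0.26 for all genes. H2-DMb1 (chr17:34153072-34160230, plus strand), the partner of H2-DMa, had 0, 0 and 635 counts in knockout back, 0, 0 and 170 in knockout tail and 103, 0 and 0 in control tail, and so shared with H2-DMa its highest library and its zeros in the first and second knockout back libraries. It was at 0 in 4 tail libraries too, and of 3590 genes near its level in the third knockout back library 19.97% were at 0 in both the first and the second. Rfx5, the subunit of the RFX complex that contacts the X box, had 0, 0 and 1310 counts in knockout back, 332, 124 and 929 in knockout tail and 418, 139 and 343 in control tail. Its log2 difference in knockout back minus control tail was -1.10 (limma adjusted p = 0.18), or 0.03 without the first and second knockout back libraries. Without the third, and with the set term dropped, it was -1.33 and passed (limma adjusted p = 0.041), but with both libraries of the smaller set left out it did not (0.056). Ctss, cathepsin S, which degrades the invariant chain, had 70, 1151 and 564 counts in knockout back, 52, 19 and 173 in knockout tail and 27, 23 and 36 in control tail. Every knockout back library exceeded every control tail library in Ctss, as was true of 7.41% of all genes, and the difference of 1.28 did not pass (limma adjusted p = 0.19). Ifi30, an interferon-gamma inducible thiol reductase of endosomes, had 4, 0 and 1128 counts in knockout back, 1524, 1699 and 1249 in knockout tail and 1135, 2361 and 663 in control tail (difference -2.05 in knockout back minus control tail, limma adjusted p = 0.11). It passed at -2.45 both without the third knockout back library and set term (limma adjusted p = 0.016) and with both libraries of the smaller set left out (0.022). These 2 settings called 2098 and 1815 genes lower, and rest on knockout back libraries with 4628 and 6127 genes at 0. In the third knockout back library Rfx5 and Ifi30 had normalised counts of 1284 and 1105, near the 1254 of H2-DMa. Of the genes near that level of H2-DMa, 11.5% were at 0 in both the first and the second. No such share was computed for Rfx5 or Ifi30. Ciita, H2-Ea and H2-Ea-ps were not analysed here.

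Genes of interferon-gamma signalling and response were examined because interferon-gamma can induce class II genes. All 12 genes of the list reported here were in the table. In knockout back minus control tail 3 rose and 0 fell, where 1.05% of all genes were called higher and 3.34% in either direction. In knockout back minus knockout tail 0 passed limma, beside 0.436% of all genes, and in knockout tail minus control tail 0, beside 0.0614%. At an unadjusted p under 0.05, 5 were higher in knockout back than in control tail, 5 higher in knockout back than in knockout tail and 3 higher in knockout tail than in control tail, beside 24.6%, 18.2% and 5.7% of all genes in either direction. Limma-voom called 0 in all 3 comparisons. Gbp3, an interferon-inducible GTPase, had a normalised count of 17186, 8265 and 7153 in knockout back, 1249, 2777 and 6220.1 in knockout tail and 119.9, 162 and 185 in control tail. All 3 groups were separate, with knockout back highest and control tail lowest. Taken pair by pair, knockout back lay above knockout tail in 4.55% of all genes and above control tail in 7.41%. Knockout tail lay above control tail in 9.7%. The share with all 3 groups in this order was not computed. Its log2 difference was 4.16 (SE 0.55, limma adjusted p = 0.018) in knockout back minus control tail. The interferon-inducible GTPases Igtp and Gbp2 differed by 3.67 and 3.07 in knockout back minus control tail (limma adjusted p of 0.025 and 0.033). The median over the list was 1.29 in that comparison, beside -0.26 for all genes, and 0.57 in knockout tail minus control tail, beside -0.07. Without the first and second knockout back libraries none of these 3 genes passed (adjusted p from 0.11 to 0.36). Gbp3 was thus 1249 or more in knockout tail libraries 1 and 2, in which the members summed to 143 and 207 normalised counts. The list did not move as 1: in knockout back minus control tail 9 of the 12 differences were positive, beside 33.9% of all genes. Ifngr1, Ifngr2 and Jak2 differed by -0.82, -0.73 and -0.59 (limma adjusted p of 0.42, 0.74 and 0.72). In the second knockout back library, with 6127 genes at 0, Irf1, Cxcl9, Cxcl10 and Jak2 were at 0 counts.

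The 10 genes most like Cd74 over the 9 libraries were ranked by Pearson's r of log2 of the normalised count plus 1, among genes with a mean normalised count of at least 50. They were Cdk11b (r = 0.964), Card10 (0.964), Vdr (0.936), Rictor (0.934), Tfeb (0.927), Pex5 (0.922), Tob2 (0.917), Csrnp1 (0.911), Smc4 (0.910) and Hp1bp3 (0.904), a description of genes picked by that value, from libraries in 2 clusters. Their ranges differed: Cdk11b, a cyclin-dependent kinase, had 3811, 3616 and 5367 counts in knockout back, 4330, 2887 and 3565 in knockout tail and 3113, 4296 and 2446 in control tail, within a far narrower range than Cd74. Card10, a scaffold protein of NF-kappaB signalling, had 747, 1981 and 594 counts in knockout back, 50, 0 and 286 in knockout tail and 0, 25 and 0 in control tail. Vdr, the vitamin D receptor, had 2147, 2008 and 3774 counts in knockout back, 615, 215 and 2618 in knockout tail and 347, 350 and 414 in control tail. In Card10 and Vdr, as in Cd74, the 4 highest libraries were the 3 of knockout back and the third of knockout tail.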

How the data were processed

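RNA was extracted with Trizol, amplified with a SMART-Seq v4 kit and sequenced paired-end on an Illumina NovaSeq, per the labels' protocols. The authors deposited 1 table of log2 values for 16299 genes in 9 libraries. DESeq2 and the build GRCm38 are named in the submitters' processing notes. No source used here names the aligner, the counter or the strand setting, so reads of overlapping or antisense genes cannot be told apart. The form of the deposited log2 values was worked out from the values: they follow a variance-stabilising curve, with 7.98 at 0 counts, and the mean of the third knockout back and the third knockout tail library equals that of the other 7 in every gene, to within 7.14e-09. Of 255 possible splits no other came close. The removed difference exceeded 1 in 18.2% of genes. Undoing both gave whole counts, within 0.004, for 16296 genes, and 3 genes with very high counts were not resolved. On this curve low counts are compressed, so differences of weakly expressed genes come out too small.

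The main test was limma 3.58.1 in R 4.3.3 (trend and robust moderation) on the deposited log2 values of all 9 libraries, with group and library set as terms, Benjamini-Hochberg adjustment over 16299 genes and a threshold of 0.05. With the set term an estimate does not depend on the removed shift, and a level shared by the third knockout back and the third knockout tail library counts towards neither group. Limma-voom on the recovered counts used trimmed-mean (TMM) factors. Exact permutation tests and figures used scipy 1.17.1 and numpy 2.4.6. Scripts were tested on simulated data. Depth was 45.7 to 67.9 M counts a library, and a library at 0 counts may hold up to 3, or 2.37 to 3.51 normalised counts. Gene positions and exon lengths are from GENCODE M21, and promoters from RefSeq.

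The members, lists, tests and alternatives were chosen with earlier results of these data known. Genes named are the members, the gauges, list genes past the threshold, a few pathway genes chosen by name (Ciita, Rfx5, Ctss, Ifi30, H2-DMb1, H2-Ea, H2-Ea-ps), markers standing apart in 1 library, Tyr, Sox10, Xist and Eif2s3y, and the 10 genes most like Cd74. Fcer1g, Coro1a, Adgre1, Laptm5, Cd68 and Krt10 are named as list markers that did not follow the same libraries. A gene of the interferon-gamma list is not reported here. Planned correlations with the gauges were dropped because the libraries formed clusters of under 6. Other alternatives were group alone, the shift put back, a filter on low values, plain moderation, quantile normalization, log2 of the normalised count plus 1 or plus 16, a replicate block, each library left out, the first and second knockout back libraries left out and, added after seeing the data, both libraries of the smaller set left out.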

Additional observations from a re-analysis of the deposited data

How the results depend on the processing

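The differences of the members and gauges in the 3 comparisons, and of 7 other genes in knockout back minus control tail, were recomputed in 20 other settings. The last, with both libraries of the smaller set left out, was chosen after seeing the data. In knockout back minus control tail, Cd74, H2-Aa and H2-Ab1 kept their positive direction in all 20, and the report gives how often they passed. With log2 of the normalised count plus 1 their differences were 6.81, 9.04 and 8.33, since that scale does not compress low counts, and their adjusted p were 0.098, 0.063 and 0.091. In knockout back minus knockout tail H2-Aa also passed with group alone (adjusted p = 0.045) and after quantile normalization (0.042). Group alone has no set term, although the set shift had been removed from the deposited values. In them H2-Aa of the third knockout tail library, at 1108 counts, was 9.62, near the 9.13 of the first, at 0 counts. With the shift put back H2-Aa did not pass in this comparison. The calls of Gbp3, Igtp and Gbp2 held in 13, 11 and 9 of the 20.

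The number of genes past the threshold was 10 for knockout tail minus control tail. It was 0 with group alone, with plain moderation, with log2 of the count plus 1 or plus 16, with limma-voom and without the first and second knockout back libraries, 6 with the shift put back and 4 with the filter on low values. Leaving out 1 library gave 0 to 8, against an unadjusted count of 929 in the full fit. For knockout back minus knockout tail it was 71, with 244 for group alone, 31 with the shift put back, 133 with plain moderation, 189 with log2 of the count plus 1, 199 with limma-voom, 1 without the first and second knockout back libraries and 2 to 1972 with 1 library left out. For knockout back minus control tail it was 545, with 163 for group alone, 217 with the shift put back, 8 without the first and second knockout back libraries and 26 to 2804 with 1 library left out. The upper ends, 1972 and 2804, came without the third knockout back library, a fit that also drops the set term. With both libraries of the smaller set left out the 3 counts were 0, 1637 and 2371. With the shift put back, 47.0% of the calls of the last comparison were higher in knockout back, against 31.4%.

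Whether replicate numbers pair the samples was not settled. The correlation of deviations from group means between same-numbered libraries ran from -0.70 to 0.076. It was taken on the deposited values, in which the removed set difference ties the third knockout back to the third knockout tail library, the pair at -0.70. This check therefore cannot decide the question. With the replicate block the 3 counts were 0, 3 and 5, in the order above, and the differences of knockout back minus control tail were 2.76 for Cd74 (adjusted p = 0.22) and 3.29 for H2-Aa (0.21).

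Signs turned in differences that, apart from that of Rfx5 (adjusted p = 0.041 in 1 setting), passed in none of the 20 settings, and the cause was not tested beyond the libraries named. In knockout tail minus control tail, H2-Aa became -0.067 and H2-Ab1 -0.094 without the third knockout tail library, without the first and second knockout back libraries and with both libraries of the smaller set left out. With 1 library left out H2-Aa ran from -0.067 to 0.66, H2-Ab1 from -0.094 to 0.76 and H2-Eb1 from -0.75 to 0.11. With the shift put back H2-Eb1 was 0.71 and H2-DMa 0.18. In knockout back minus knockout tail, H2-Eb1 was -1.53 and -0.30 and Lyz2 -0.30 and -0.24 on the scales of log2 of the count plus 1 and plus 16, Lyz2 was -0.18 with limma-voom and H2-DMa 0.70 after quantile normalization. With both libraries of the smaller set left out H2-Eb1 was -0.38. Without the first and second knockout back libraries H2-DMa was 1.47, Tyrobp -0.068 and Lyz2 -0.66. With 1 library left out H2-Eb1 ran from -0.14 to 0.54, H2-DMa from -0.44 to 0.34, Tyrobp from -0.022 to 1.52 and Lyz2 from -0.94 to 1.08. In knockout back minus control tail, H2-Eb1, H2-DMa and H2-DMb1 were 0.88, 0.16 and 0.42 with the shift put back, 0.56, 0.54 and 0.78 after quantile normalization and 1.25, 1.46 and 0.58 without the first and second knockout back libraries, where Rfx5 was 0.033. With 1 library left out H2-Eb1 ran from -0.39 to 0.27, Lyz2 from -0.017 to 2.51 and H2-DMb1 from -0.27 to 0.14.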
